A study of Mus musculus with 8 samples.

Results

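Adipokines are proteins that fat cells release into the circulation or into the surrounding tissue. The transcripts of 9 of them, Adipoq, Lep, Retn, Cfd, Rbp4, Nampt, Apln, Rarres2 and Itln1, were followed in mouse brown adipose tissue (BAT) after sham surgery (Sham) and after thoracic aortic constriction (TAC), in which a narrowed aorta loads the left ventricle with pressure. The genes were taken as a family by symbol, and every probe whose RefSeq accession belonged to one of them was taken, which gave 11 of the 55681 probes on the array and 9 of the 21150 genes with a symbol. By their labels the mice were C57BL/6NCrSlc males housed at 23 °C on normal chow with 12 h of light, no genetic change is named for either group, surgery took place at 11 weeks of age and the tissue was taken at 13 weeks, with 4 mice in each group and 1 Agilent array per mouse. The labels place collection 2 weeks after surgery in the source name and the protocol and 4 weeks after it in the description line. The intensities extracted by the scanner software were used for 3 Sham arrays (replicates 2 to 4) and 4 TAC arrays, and a second table held scaled intensities of all 8 arrays. The labels do not say which BAT depot was dissected.

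Adiponectin (Adipoq) and adipsin (Cfd) are among the most abundant products of mature adipocytes, leptin (Lep) reports fat stores to the hypothalamus, and resistin (Retn) is made by adipocytes in rodents. RBP4 carries retinol in blood, chemerin (Rarres2) attracts immune cells, NAMPT makes a precursor of NAD, apelin (Apln) acts on heart and vessels, and omentin (Itln1) is best known from visceral fat. Most of this knowledge comes from white adipose tissue, and brown adipocytes, which burn fat for heat, are known to make little leptin when they are active.

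The 7 scanned arrays shared 1 slide, on which one row held Sham and the other row held TAC, so effects of the row and of TAC cannot be told apart. Between 54.5% and 64.3% of the spots of an array were well above background, and the 75th percentile of the intensity was between 453.6 and 604.5 units. Values are given below as log2 intensity relative to that percentile of the same array, so 0 is the level of a probe at the 75th percentile, and a value describes one probe across arrays, not one gene against another. The tissue carried the transcripts of its label, and those of other tissues too. The 10 markers of skeletal muscle and the 6 of endothelium were well above background on all 7 arrays. All 6 markers of adipocytes in general and all 12 markers of brown adipocytes, Ucp1 among them, were well above background on all 7 arrays, and of 8 markers of white adipocytes 6 were bright enough to test, Nnat, Slc7a10, Agt and Wfdc21 on all 7 arrays, while Hoxc9 and Tcf21 were too dim.

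TAC replicate 1 stood apart from the other arrays. Relative to the Sham mean, its markers of macrophages averaged 1.0 and its markers of lymphocytes 1.12 on the log2 scale, while TAC replicates 2 to 4 lay between -0.48 and -0.15 for macrophages and between -0.41 and -0.09 for lymphocytes. The markers of brown adipocytes averaged -0.98 there and -0.51 to -0.15 on TAC replicates 2 to 4, all below the Sham arrays at -0.09 to 0.15. On TAC replicate 1, Elovl3 (-3.78 against a Sham mean of 1.75) and Dio2 (0.64 against 3.23) weighed most in that mean. Over the 12 markers the median difference was -0.20 and the mean difference -0.46. By the brightest probe of each gene, the 12 brown adipocyte markers had 12 differences below 0 and 0 past an adjusted p of 0.05. Of all probes tested, 55.8% had a difference below 0. Another tested probe went the other way for Ppargc1a (-0.009 by its brightest probe) and Cpt1b (-0.18), and the same way for Zic1. The 10 markers of skeletal muscle had 10 differences above 0 and 0 past it, and their mean varied in both groups, from -0.91 to 0.86 in Sham and, on TAC replicates 1 to 4, at 1.64, 1.19, -0.56 and 1.48. The 6 endothelial markers averaged 0.04 to 0.17 on the TAC arrays and -0.05 to 0.03 on the Sham arrays, with 0 past the adjusted threshold. The difference of each tested adipokine is therefore given with and without this array. In a piece of tissue, fewer cells of a type and less RNA per cell cannot be told apart.

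**Figure D1:**
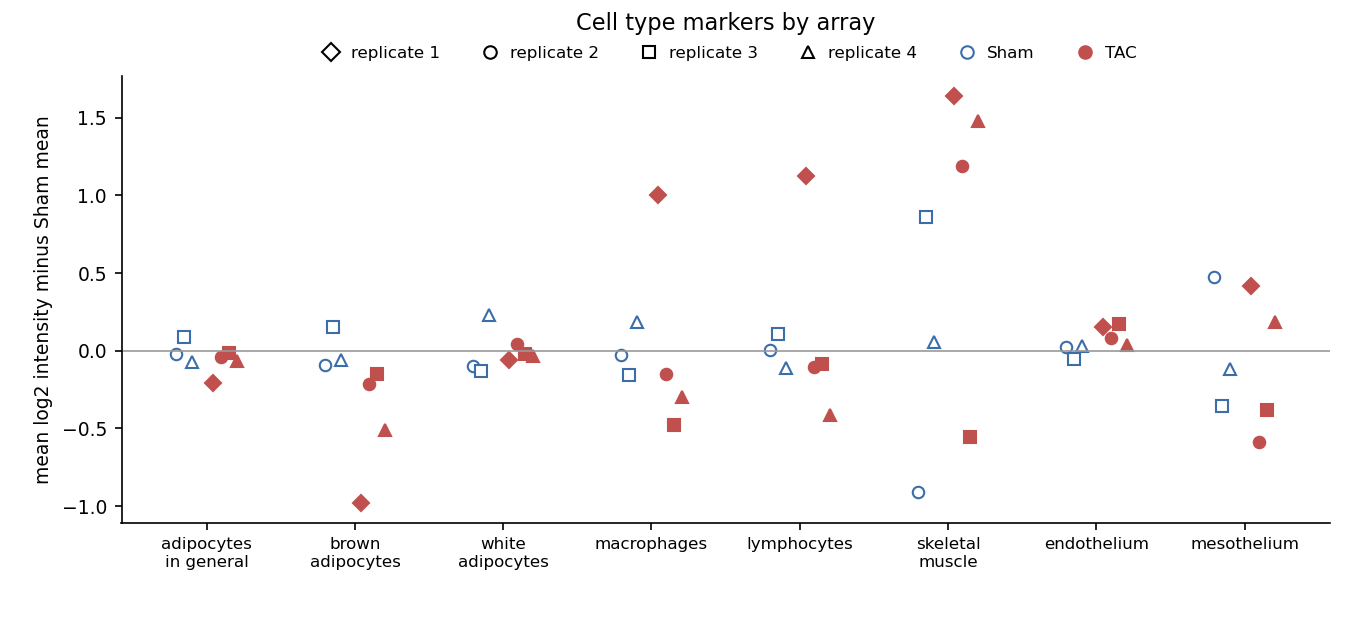
Mean log2 intensity of 8 lists of cell type markers on each array of the scanner files, relative to the Sham mean of replicates 2 to 4, with open blue symbols for Sham and filled red symbols for TAC. TAC replicate 1 lies at 1.0 for macrophages, 1.12 for lymphocytes and -0.98 for brown adipocytes, and the adipocyte markers in general stay within -0.21 and 0.09 on every array.

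No adipokine passed the test of TAC against Sham. Of the 8 adipokine genes that were bright enough to test, 4 were measured higher and 4 lower after TAC (55.8% of all probes tested had a difference below 0), and 0 passed an adjusted p of 0.05 (limma, Benjamini-Hochberg adjustment over 33360 probes), where 0% of all probes tested passed it as higher and 0% as lower. At an unadjusted p under 0.05 there was 1 gene, Rbp4, which was lower, against 8.43% of all probes as lower and 4.38% as higher. The median of the 8 differences was 0.013, and that of all probes was -0.03. The number of arrays limits the precision: an exact permutation test of 4 TAC against 3 Sham arrays cannot give a two-sided p below 0.0286.

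**Figure D2:**
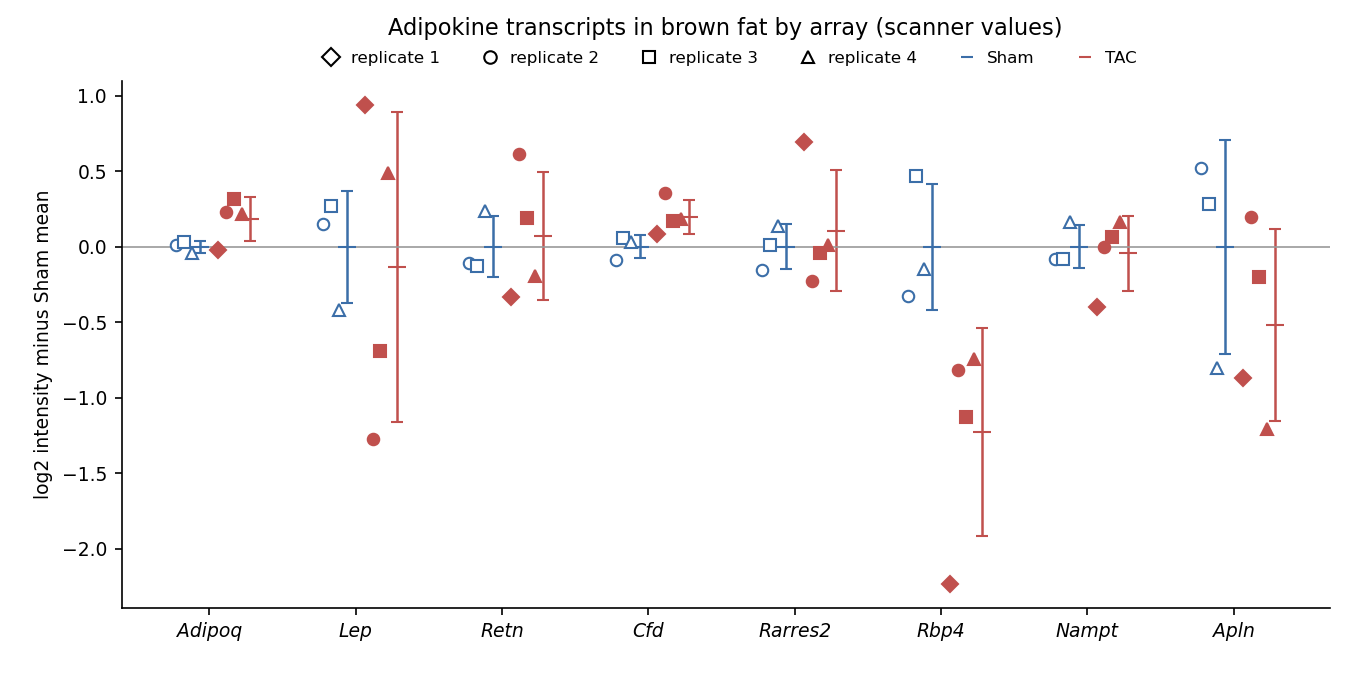
Log2 intensity of the 8 adipokines above background on each array of the scanner files, relative to the Sham mean of the same probe (the brightest probe of each gene), with bars for the mean and SD of 3 Sham and 4 TAC arrays. Rbp4 is the member whose TAC arrays all lie below its Sham arrays, Adipoq and Cfd have narrow spreads, and Lep and Apln have wide ones.

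Rbp4, the carrier of retinol that adipocytes and liver secrete, had the largest difference of the family. On the scanner files its level was 5.51, 6.30 and 5.68 on Sham replicates 2, 3 and 4, and 3.60, 5.01, 4.70 and 5.09 on TAC replicates 1 to 4. Every TAC array lay below every Sham array, as was the case for 10.4% of all probes tested. The mean was 5.83 ± 0.42 in Sham (SD, n = 3) and 4.60 ± 0.69 in TAC (SD, n = 4). The log2 difference was -1.23 (SE 0.39, 95% interval -2.15 to -0.31), a level 2.35-fold lower after TAC, with an unadjusted p of 0.0155 and an adjusted p of 0.305 in limma, and an exact two-sided permutation test gave p = 0.0286, the smallest it can give. Of all probes tested, 5.10% had a smaller p and 149 (0.447%) had a difference as low or lower. So the size of the difference was unusual on these arrays and its p was not.

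The table of 8 arrays added Sham replicate 1, which did not enter the scanner values. In units of the array's 75th percentile, Rbp4 read 46.3, 52.4, 89.9 and 58.7 on Sham replicates 1 to 4 and 13.8, 36.5, 29.5 and 38.4 on TAC replicates 1 to 4. The added Sham array was the lowest of its group and still above all TAC arrays, so the groups did not overlap there either, as for 6.29% of all probes in the table and 5.82% in both sets of values. The log2 difference in the table was -1.12 (SE 0.35, 95% interval -1.92 to -0.32, limma adjusted p = 0.252, exact permutation p = 0.0286). TAC replicate 1 was the lowest array in both. Without it the log2 difference was -0.90 on the scanner values (exact permutation p = 0.1, the smallest possible with 3 arrays a group). In the table the difference was then -0.79 (exact permutation p = 0.0571). Leaving out a TAC array could not make the groups overlap, so their separation without it adds nothing. The mean of the brown adipocyte markers was -0.98, -0.22, -0.15 and -0.51 on TAC replicates 1 to 4, also below all Sham arrays and lowest on TAC replicate 1. Elovl3 and Dio2 weighed most in that lowest mean. The part of these markers in the Rbp4 difference was not tested. A single probe measured Rbp4, so no second probe bears on it.

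**Figure D3:**
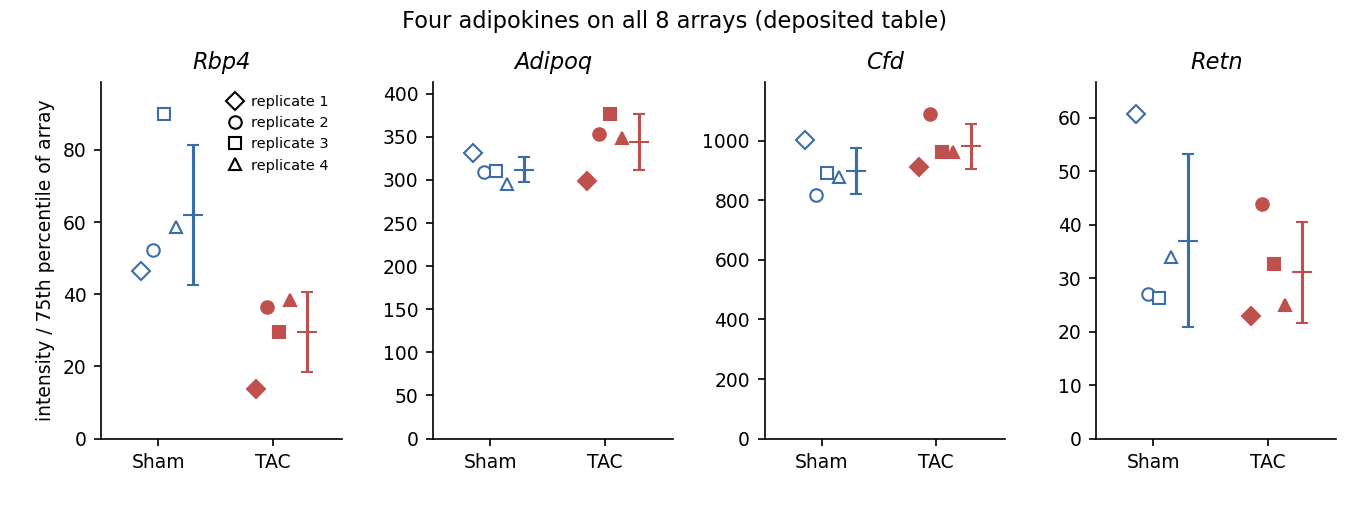
Intensities of Rbp4, Adipoq, Cfd and Retn on all 8 arrays in the deposited table, in units of the array's 75th percentile, with bars for the mean and SD of 4 Sham (open, blue) and 4 TAC arrays (filled, red). The Rbp4 values do not overlap between groups (46.3 to 89.9 against 13.8 to 38.4), the Adipoq and Cfd values do, and Sham replicate 1 is far above the other arrays for Retn.

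RefSeq (GRCm38.p6) lists a pair of transcription starts for Rbp4. The 250 bases before the upstream start (chr19:38125322-38125571, minus strand) are shown because Rbp4 had the largest difference. In the sequences here, capitals mark matches, on either strand, to any of 5 letter patterns: the TATA box TATAAA, the CCAAT box CCAAT, the GC box GGGCGG, the E-box CACGTG and the core of sites for C/EBP factors, TTNNGNAA.
Rbp4: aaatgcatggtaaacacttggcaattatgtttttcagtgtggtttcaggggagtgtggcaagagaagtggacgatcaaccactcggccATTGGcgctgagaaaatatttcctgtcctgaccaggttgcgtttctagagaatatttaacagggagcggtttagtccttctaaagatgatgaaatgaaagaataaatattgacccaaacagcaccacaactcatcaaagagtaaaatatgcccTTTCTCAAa
It held a CCAAT box on the opposite strand 162 to 158 bases before the start and a C/EBP core on the opposite strand 9 to 2 bases before it. The window before the downstream start, not printed, held a TATA box 28 to 23 bases before that start, 2 GC boxes and 2 positions with a C/EBP core. Among 32851 mouse promoter windows of 250 bases, a TATA box occurred in 12.4%, a CCAAT box in 33.8%, a GC box in 32.7%, an E-box in 6.02% and a C/EBP core in 36.8%, so most of these letters are common. A match describes the letters and shows no binding.

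Of 6 other genes that handle retinol, 3 were bright enough to test, with 1 higher, 2 lower and 0 past the adjusted threshold, and a median difference of -0.002. Rdh10, which oxidizes retinol, differed by -0.10 (SE 0.15, limma adjusted p = 0.802), and Aldh1a1, which makes retinoic acid, by 0.08 (SE 0.18, adjusted p = 0.863). Stra6, a receptor for RBP4, was well above background on 0 of 7 arrays, and Ttr, the protein that holds RBP4 in plasma, on 2 of 7, so neither was tested. For both dim probes all TAC values lay below all Sham values (Ttr -6.71 to -5.61 against -5.03 to -4.76, and Stra6 -6.81 to -5.88 against -5.51 to -4.43), where a level near background is only a bound. Such a split occurred for 10.4% of all probes tested, a set that leaves out these dim probes. Its share among dim probes was not computed. A dim Itln1 probe split the same way on the scanner values (-6.89 to -6.29 against -5.98 to -5.05). The other Itln1 probe overlapped between groups. In the table that added Sham replicate 1, this array read 0.008 for the Itln1 probe that split, below all TAC arrays at 0.01 to 0.015. The groups of that probe thus overlapped there. On the scanner values, with dim probes kept, the median of the retinol list was -0.37.

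Adipoq, which encodes adiponectin, was steady in Sham and slightly higher on most TAC arrays. Its level was 8.07, 8.09 and 8.02 on Sham replicates 2 to 4 and 8.04, 8.29, 8.37 and 8.27 on TAC replicates 1 to 4. TAC replicates 2 to 4 exceeded every Sham array, while TAC replicate 1 lay among them. The Sham mean was 8.06 ± 0.039 (SD, n = 3) and the TAC mean 8.24 ± 0.15 (SD, n = 4). The difference of 0.18 (SE 0.10, 95% interval -0.05 to 0.42), a 1.14-fold higher level with an interval of 0.963 to 1.34, did not pass (limma adjusted p = 0.481, exact permutation p = 0.114). In the table of 8 arrays Adipoq read 330.9, 309.4, 310.8 and 295.6 in Sham and 299.1, 353.3, 376.4 and 348.9 after TAC, with a log2 difference of 0.14 (limma adjusted p = 0.503, exact permutation p = 0.114). Without TAC replicate 1 the difference was 0.25 on the scanner values (exact permutation p = 0.1). In the table it was 0.21 (exact permutation p = 0.0286, the smallest for 4 Sham and 3 TAC arrays). The groups then did not overlap, but the array left out was the only TAC array among the Sham values. The share of all probes that separate without it was not computed, so these p-values are given as a description. TAC replicate 1 also had the lowest adipocyte markers, with a mean of -0.21 against -0.07 to -0.01 on the other TAC arrays. Their part in the Adipoq level was not tested.

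The window before the Adipoq start (chr16:23146286-23146535, plus strand, GRCm38.p6) is shown because adiponectin defines mature adipocytes and was the steadiest of the family in Sham.
Adipoq: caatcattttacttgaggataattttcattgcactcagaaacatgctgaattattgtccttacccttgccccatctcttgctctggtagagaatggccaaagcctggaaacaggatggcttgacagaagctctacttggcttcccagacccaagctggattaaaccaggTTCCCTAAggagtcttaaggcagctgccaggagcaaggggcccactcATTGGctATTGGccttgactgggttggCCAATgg
It held 3 CCAAT boxes within 34 bases of the start and a C/EBP core 81 to 74 bases before it.

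Adiponectin leaves the cell only after it is folded and joined into multimers in the endoplasmic reticulum. Of 5 genes for that process, all tested, 3 were higher, 2 lower and 0 past the adjusted threshold, with a median of 0.01. Ero1a, an oxidase that helps release adiponectin, was -1.36, -1.32 and -1.15 in Sham and -1.42, -1.37, -1.49 and -1.50 after TAC. Those TAC values lay below all Sham values, as for 10.4% of all probes tested, the closest pair by less than 0.01 (difference -0.17, SE 0.09, limma adjusted p = 0.466). Gstk1, also called DsbA-L, differed by 0.09 (SE 0.09, adjusted p = 0.692) and Plod3, a lysyl hydroxylase, by 0.07 (SE 0.08, adjusted p = 0.707).

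Both adiponectin receptors were measured. Adipor1 differed by 0.04 (SE 0.09, limma adjusted p = 0.876). Adipor2, the receptor linked to fatty acid oxidation, was 8.05, 8.20 and 7.98 in Sham and 7.32, 7.84, 7.79 and 7.78 after TAC. Every TAC array thus lay below every Sham array, as for 10.4% of all probes tested. Its difference of -0.39 (SE 0.15) had an unadjusted p of 0.033 and an adjusted p of 0.356 in limma.

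Lep had the widest spread of the family after TAC. Its level, the mean of 10 spots per array, was -0.46, -0.34 and -1.04 on Sham replicates 2 to 4, and 0.33, -1.89, -1.31 and -0.12 on TAC replicates 1 to 4. The TAC arrays held both the highest and the lowest Lep values, with Sham in between. The SD was 0.37 in Sham (n = 3) and 1.03 in TAC (n = 4), 2.77 times as large, and the difference of the means was -0.13 (SE 0.54, 95% interval -1.40 to 1.13, limma adjusted p = 0.930, exact permutation p = 0.857). In fold terms that interval runs from 0.379 to 2.19, so the arrays do not tell a halving of leptin mRNA from a doubling. The 10 spots of 1 array had an SD of 0.0662 to 0.114, while the arrays spanned 2.21, so the spread lay between arrays, 1 per mouse, and not between spots. The table of 8 arrays put Sham replicate 1 at 0.632, inside the Sham range of 0.557 to 0.900, and the TAC arrays between 0.306 and 1.43. TAC replicate 1, with the highest macrophage and lymphocyte markers, had the highest Lep. TAC replicate 4 came next in Lep, with means of -0.30 for macrophage and -0.41 for lymphocyte markers relative to Sham. The part of these markers in the Lep level was not tested. Without TAC replicate 1 the difference was -0.49 (exact permutation p = 0.5).

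The Lep window (chr6:29059971-29060220, plus strand, GRCm38.p6) is shown for contrast with Adipoq, as the gene with the widest spread among TAC arrays.
Lep: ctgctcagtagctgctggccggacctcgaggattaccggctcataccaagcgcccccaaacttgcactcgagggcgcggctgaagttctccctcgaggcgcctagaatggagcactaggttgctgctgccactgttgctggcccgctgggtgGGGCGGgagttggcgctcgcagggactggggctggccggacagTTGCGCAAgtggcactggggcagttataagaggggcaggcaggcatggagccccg
It held a GC box 98 to 93 bases before the start and, 55 to 48 bases before it, a C/EBP core that reads on both strands. No CCAAT box was found in it. Lepr, the leptin receptor, differed by -0.20 (SE 0.15, limma adjusted p = 0.610).

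Retn was measured by 2 probes, which followed each other over the arrays (Pearson r = 0.985, n = 7 arrays). The brighter one read 4.55, 4.53 and 4.89 on Sham replicates 2 to 4 and 4.33, 5.28, 4.85 and 4.47 on TAC replicates 1 to 4. The TAC arrays lay on both sides of the Sham arrays. The means were 4.66 ± 0.20 in Sham (SD, n = 3) and 4.73 ± 0.43 in TAC (SD, n = 4), with a difference of 0.07 (SE 0.24, 95% interval -0.49 to 0.63, limma adjusted p = 0.916, exact permutation p = 0.857). The second probe differed by -0.002 (limma adjusted p = 0.997, exact permutation p = 0.971). In the table of 8 arrays Sham replicate 1 stood at 60.7, above the other Sham arrays at 26.4 to 34.0 and the TAC arrays at 22.9 to 43.8, and with it the difference turned to -0.21 (limma adjusted p = 0.780, exact permutation p = 0.571). The direction for Retn thus turned with 1 Sham array, and it also turned without TAC replicate 2 (-0.11). Without TAC replicate 1 it was 0.21 on the scanner values (exact permutation p = 0.7) and -0.08 in the table (exact permutation p = 0.8).

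Lep and Retn mirrored each other from mouse to mouse. Over the 7 arrays their Pearson r was -0.979 and their Spearman rho -0.964, the strongest of the 28 pairs of tested adipokines, with r = -0.969 for the second Retn probe. The TAC array with the lowest Lep (replicate 2, -1.89) had the highest Retn (5.28), and the one with the highest Lep (replicate 1, 0.33) had the lowest Retn (4.33). Without the 2 arrays farthest from the median in Lep, TAC replicates 2 and 3, r was -0.976 over 5 arrays. TAC replicate 1, with the highest Lep, stayed among those 5. Sham replicate 1 did not lie on this line: it had the highest Retn of all 8 arrays and a middling Lep, and over the 8 arrays of the table r was -0.678 and rho -0.833. The next pair was Adipoq and Cfd, with r = 0.734 and rho = 0.714 over 7 arrays and r = 0.680 in the table. These coefficients describe arrays that share a slide and are given without a test, because the pair was picked as the strongest.

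Cfd encodes adipsin, the protease that cleaves factor B and starts the alternative complement pathway. It read 9.47, 9.61 and 9.58 on Sham replicates 2 to 4 and 9.64, 9.91, 9.73 and 9.74 on TAC replicates 1 to 4. Here every TAC array lay above every Sham array, as for 5.59% of all probes. The means were 9.56 ± 0.075 (SD, n = 3) and 9.75 ± 0.11 (SD, n = 4), and the difference of 0.20 (SE 0.09, 95% interval -0.02 to 0.42), 1.15-fold with an interval of 0.984 to 1.34, did not pass (limma adjusted p = 0.433, exact permutation p = 0.0571). In the table Sham replicate 1 stood at 1004 and the other Sham arrays at 817.7 to 891.1, against 911.0 to 1090 after TAC. That array closed the gap between the groups, where 3.53% of all probes had every TAC array above every Sham array both in the table and in both sets of values, and the difference became 0.13 (limma adjusted p = 0.551, exact permutation p = 0.229). Without TAC replicate 1 the difference was 0.24 on the scanner values (exact permutation p = 0.1).

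The rest of the alternative complement pathway showed no common direction. Of 8 genes, 6 were tested, with 3 higher, 3 lower and 0 past the adjusted threshold, and a median of 0.02. Cfb, the substrate of adipsin, differed by 0.40 (SE 0.27, limma adjusted p = 0.551) and Cd55, which dissolves the convertase at the cell surface, by 0.12 (SE 0.14, adjusted p = 0.735). C3, the central component, read 7.87, 7.85 and 7.49 in Sham and 6.74, 8.10, 7.94 and 7.53 after TAC (difference -0.16, SE 0.32, adjusted p = 0.849).

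Rarres2, which encodes chemerin, read 4.26, 4.43 and 4.56 on Sham replicates 2 to 4 and 5.11, 4.19, 4.37 and 4.43 on TAC replicates 1 to 4. TAC replicate 1 was the highest array, and the other 6 lay between 4.19 and 4.56. The means were 4.42 ± 0.15 (SD, n = 3) and 4.52 ± 0.40 (SD, n = 4), and the difference was 0.11 (SE 0.22, 95% interval -0.41 to 0.63, limma adjusted p = 0.854, exact permutation p = 0.886). Without TAC replicate 1 it became -0.09 (exact permutation p = 0.4), and in the table of 8 arrays Sham replicate 1 stood at 21.8, next to Sham replicate 2 at 22.1, against 39.3 on TAC replicate 1. That array was also the one with the raised macrophage and lymphocyte markers, whose part in its chemerin level was not tested. Of the chemerin receptors, Cmklr1 was well above background on 0 of 7 arrays. Gpr1 differed by -0.54 (SE 0.30, limma adjusted p = 0.486), and Ccrl2, which presents chemerin without signalling, by 0.08 (SE 0.12, adjusted p = 0.780).

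Nampt makes nicotinamide mononucleotide inside cells and is also found in plasma under the name visfatin. Its level was 5.45, 5.44 and 5.69 on Sham replicates 2 to 4 and 5.13, 5.53, 5.59 and 5.69 on TAC replicates 1 to 4. TAC replicate 1 was the lowest array and the other TAC arrays lay within the Sham range. The means were 5.53 ± 0.14 (SD, n = 3) and 5.48 ± 0.25 (SD, n = 4). The difference was -0.04 (SE 0.15, 95% interval -0.40 to 0.32, limma adjusted p = 0.919, exact permutation p = 0.857), in fold terms 0.756 to 1.25. In the table Sham replicate 1 read 39.9, as low as TAC replicate 1 at 39.8, and the other 6 arrays read 49.6 to 59.1, so that the difference there was 0.04 (exact permutation p = 0.771). Without TAC replicate 1 it was 0.08 on the scanner values (exact permutation p = 0.6) and 0.16 in the table (exact permutation p = 0.343). Each group thus held a low mouse, and the sign of the difference depended on which arrays entered and on how they were scaled or weighted.

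Of 9 other genes of NAD salvage, 8 were tested, with 2 higher, 6 lower and 0 past the adjusted threshold, and a median of -0.06. Nmnat1, the nuclear enzyme that turns the NAMPT product into NAD, was 2.30, 2.34 and 2.17 in Sham and 1.89, 2.11, 2.05 and 2.00 after TAC. All TAC values lay below all Sham values, as for 10.4% of all probes tested (difference -0.26, SE 0.09, limma unadjusted p = 0.025, adjusted p = 0.337). Nmrk2, a nicotinamide riboside kinase known from muscle, differed by -0.57 (SE 0.54, adjusted p = 0.674) and Nadk, which makes NADP, by -0.13 (SE 0.13, adjusted p = 0.705).

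Apln, the apelin gene, was dim but above background on 7 of 7 arrays. It read -1.51, -1.75 and -2.84 on Sham replicates 2 to 4 and -2.90, -1.84, -2.23 and -3.24 on TAC replicates 1 to 4. The groups overlapped widely, with a low array in Sham and a pair of low arrays in TAC. The means were -2.03 ± 0.71 (SD, n = 3) and -2.55 ± 0.63 (SD, n = 4), and the difference was -0.52 (SE 0.43, 95% interval -1.54 to 0.50, limma adjusted p = 0.628, exact permutation p = 0.343). In the table Sham replicate 1 was the highest array at 0.465, the other Sham arrays lay at 0.160 to 0.406 and the TAC arrays at 0.119 to 0.317, for a difference of -0.72 (limma adjusted p = 0.450, exact permutation p = 0.171). Without TAC replicate 1 it was -0.40 on the scanner values (exact permutation p = 0.5). Its receptor Aplnr differed by 0.14 (SE 0.31, adjusted p = 0.867 in limma).

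Both Itln1 probes were well above background on 0 of 7 arrays, so omentin was not tested and no fold is given. Of 6 markers of mesothelium, the layer that covers visceral fat, Lrrn4 was well above background on 7 of 7 arrays, Krt19 on 3, Msln on 1, and Upk3b, Wt1 and Upk1b on 0.

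**Figure D4:**
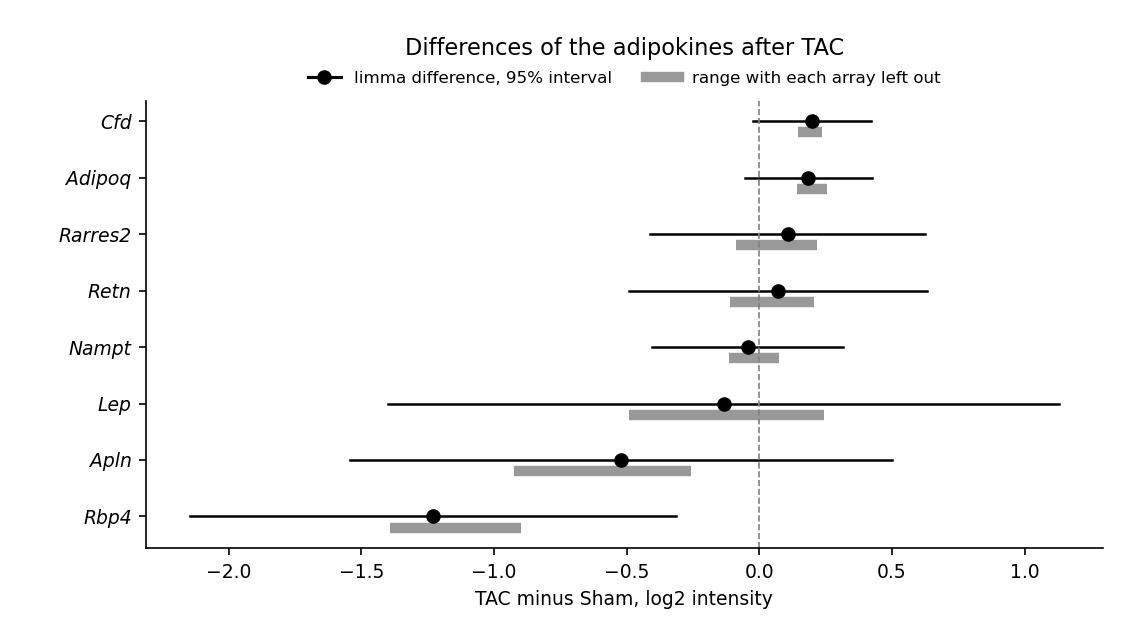
Log2 difference TAC minus Sham of the 8 adipokines tested (points, with 95% intervals from limma over 3 Sham and 4 TAC arrays) and the range of the difference when each array in turn is left out (grey bars). The interval of Rbp4, -2.15 to -0.31, leaves out 0 while its adjusted p is 0.305, and leaving out an array changes the sign for Lep, Retn, Nampt and Rarres2.

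The 8 lists of genes around the adipokines held 70 genes, of which 68 had a probe and 57 were tested. Of these 28 were higher, 29 lower and 0 past an adjusted p of 0.05, and the smallest adjusted p was 0.256 (limma). At an unadjusted p under 0.05, 2 were higher and 2 lower, 7.02% against 12.8% of all probes tested. The 2 lower genes, Adipor2 and Nmnat1, are described above. Among 10 other secreted products of fat, with 8 tested, 5 higher and 3 lower, Angptl4, which inhibits lipoprotein lipase, was 7.29, 7.77 and 7.69 in Sham and 8.39, 7.88, 8.30 and 8.46 after TAC. Every TAC array lay above every Sham array for Angptl4, as for 5.59% of all probes tested, with a difference of 0.67 (SE 0.18, unadjusted p = 0.007, adjusted p = 0.256 in limma). Agt, the precursor of angiotensin, differed by 0.30 (SE 0.20, adjusted p = 0.546) and Lcn2, a carrier of iron-binding siderophores, by 0.08 (SE 0.16, adjusted p = 0.859).

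Among the paralogs of the adipokines, 14 genes with 10 tested, 5 were higher and 5 lower. C1qtnf4, a relative of adiponectin, was 0.57, 0.19 and 0.36 in Sham and 0.51, 1.13, 1.0 and 0.93 after TAC. TAC replicate 1 lay within the Sham range and the other TAC arrays above it (difference 0.52, SE 0.17, limma unadjusted p = 0.017, adjusted p = 0.311). C1qtnf7 differed by -0.16 (SE 0.13, adjusted p = 0.614) and C1qtnf1 by 0.09 (SE 0.08, adjusted p = 0.642). Of the adipokine receptors and binding partners, 13 genes with 10 tested, 5 were higher and 5 lower, and C5ar2, a receptor for complement fragments, differed by -0.47 (SE 0.30, adjusted p = 0.533).

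**Figure D5:**
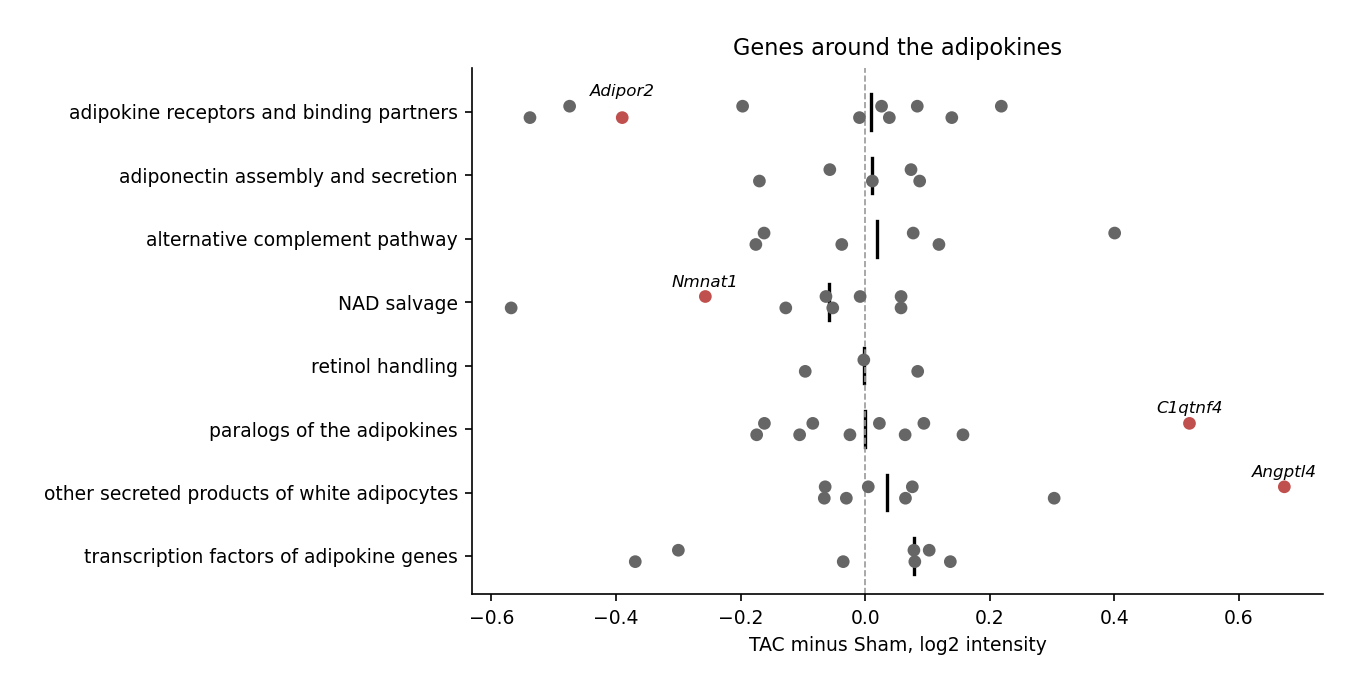
Log2 difference TAC minus Sham of the 57 tested genes around the adipokines, in 8 lists, with a black bar at the median of each list. Differences lie on both sides of 0 in every list, and the 4 genes in red (Adipor2, Nmnat1, C1qtnf4 and Angptl4) had an unadjusted p under 0.05 while 0 genes passed an adjusted p of 0.05.

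All 7 transcription factors listed as drivers of adipokine genes were tested, with 4 higher, 3 lower and 0 past the adjusted threshold. Pparg, the master regulator of adipocytes, differed by 0.10 (SE 0.10, limma adjusted p = 0.685) and Cebpa, which binds C/EBP cores such as those marked above, by -0.04 (SE 0.10, adjusted p = 0.901). Srebf1, a regulator of lipid synthesis, differed by -0.30 (SE 0.16, adjusted p = 0.463) and Cebpb by -0.37 (SE 0.23, adjusted p = 0.519). RefSeq gave promoter windows for 8 of the 9 adipokines. C/EBP cores were found in those of Adipoq, Lep and Rbp4, GC boxes and none of the other letters in those of Nampt and Apln, and none of the 5 patterns in those of Retn, Cfd and Itln1.

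The genes most like Adipoq and Lep over the 7 arrays were found among the 14974 genes with a tested probe. For Adipoq these were Kdm1b (Pearson r = 0.998, Spearman rho = 1), Ost4 (r = 0.978), Nomo1 (r = 0.975), Os9 (r = 0.973) and Fam234a (r = 0.971). Kdm1b, a histone demethylase, read 1.31, 1.33 and 1.26 in Sham and 1.30, 1.55, 1.66 and 1.54 after TAC, with the same order of arrays as Adipoq. For Lep they included Psmf1 (r = 0.994, rho = 0.964), Adgrg5 (r = 0.959), Lat2 (r = 0.949) and Plxdc1 (r = 0.946). In the table of 8 arrays, with Sham replicate 1 added, r was 0.935 for Adipoq with Kdm1b and 0.925 for Lep with Psmf1. These are the highest of many coefficients over few arrays that share a slide, and they are given as a description.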

How the data were processed

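RNA of BAT from 4 Sham and 4 TAC mice was labelled with Cy3 from 100 ng and hybridized to one-colour Agilent arrays, per the labels. The deposited scanner values of 7 arrays are intensities that the authors extracted with Agilent Feature Extraction 10.7.1.1, with the background subtracted and no scaling among arrays. For all 8 arrays there is also a deposited table with a single intensity for each probe, whose making is not given in the sources used here. Its columns had medians of 0.091 to 0.098 and a 75th percentile of 1.002 to 1.004, and for probes above the scanner 75th percentile, dividing the scanner intensity by 1 number per array gave every table value to within 1%, so scale and direction are settled by the data. That percentile was taken over probes and the one used here over spots, which shifts the table by 0.17 to 0.21 on the log2 scale.

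From 59305 spots that are not controls, outlier spots (134 to 191 per array) were left out, log2 intensity minus the 75th percentile of the array was taken, and spots of a probe were averaged. The 33360 probes that stood well above background on 3 or more arrays, with 2 or more arrays measured per group, entered limma 3.58.1 (lmFit, eBayes; R 4.3.3), with Benjamini-Hochberg adjustment over all of them and no block. Adjusted p-values come from this test, except those given for the table of 8 arrays or for an alternative, which come from separate fits of those values. Exact two-sided permutation tests of the difference of means (scipy 1.17.1) ran over all 35 splits of 7 arrays and 70 of 8. The series describes its samples as independent. The script was tested on simulated data.

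Symbols came from a RefSeq gene table (GRCm38.p6) by accession without version, for 28020 of 55681 probes (50.3%). The brightest probe stands for a gene with several. Gene coordinates are not given, because the array follows another assembly (mm9), and the promoter sequences and their coordinates are those of RefSeq. Rarres2 had no promoter entry.

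The members and gene lists were chosen with earlier results of these data known. Named genes are every member, the 3 genes of each list with the smallest p, the 5 genes most like Adipoq and Lep, and marker genes. Some genes that this rule gives are not reported here. Adipor1, Lepr, Ccrl2, Aplnr, C3, Cebpa and the dim Cmklr1, Stra6 and Ttr were added after their values were seen, as partners of a member. Alternatives were normexp (offset 50), quantile normalization, median centring, the deposited table (8 arrays, the same 7, and without TAC replicate 1), no filter and a filter on every array, an intensity trend, array weights, outlier spots kept, the methods' t-test, a replicate block, each array left out, and averaging a gene's probes. Deviations of same-numbered arrays correlated between -0.03 and 0.001 on the scanner values and 0.02 to 0.27 in the table, highest for replicate 1. The labels do not say whether the numbers pair the mice. Correlations over all probes cannot decide it, because a pairing need not move most probes.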

Additional observations from a re-analysis of the deposited data

How the results depend on the processing

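Each of the 8 adipokine differences was recomputed under 22 alternatives, and 157 of the 176 values kept their direction and their side of the threshold. No alternative gave a member an adjusted p under 0.05. Rbp4 stayed below 0 throughout (-1.39 to -0.79, adjusted p 0.188 to 0.691, unadjusted p under 0.05 in 21 of 22, and not without Sham replicate 3, where it was 0.060). Apln did as well (-0.92 to -0.26), with an unadjusted p under 0.05 in 2 of 22, each with the replicate block. Adipoq (0.14 to 0.29, unadjusted p under 0.05 in 5 of 22) and Cfd (0.13 to 0.35, in 6 of 22) stayed above 0. The directions of the other members turned with single arrays left out. Those of Nampt and Rarres2 also turned with array weights, and that of Nampt with quantile normalization. The cause was not tested. With each array left out, Lep ran from -0.49 to 0.25, Retn from -0.11 to 0.21, Nampt from -0.11 to 0.075 and Rarres2 from -0.087 to 0.22. In the table of 8 arrays, with or without the replicate block, Retn was -0.21 and Nampt 0.042, and without TAC replicate 1 in that table Retn was -0.080, Nampt 0.16 and Rarres2 -0.064. With the replicate block on 7 arrays, which leaves TAC replicate 1 without a partner, Nampt was 0.075 and Rarres2 -0.087. Array weights gave 0.014 for Nampt and -0.059 for Rarres2, and quantile normalization 0.013 for Nampt. The replicate block called 0 probes in either set, as the analysis without it did.

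Over all probes, 0 were called, against 1 with normexp, 1 with median centring and 1 with array weights, and 0 to 9 with each array left out (7 higher and 2 lower without TAC replicate 4). At an unadjusted p under 0.05 there were 1462 higher and 2811 lower, and the methods' t-test gave 1602 and 2584, with 0 after Benjamini-Hochberg adjustment. The scalings moved the median of all probes by less than the 0.1 that would need a correction, to -0.06 with median centring and -0.02 with quantile normalization. Itln1 has no values here because it was not tested. With 3 against 4 arrays, the 95% intervals of Adipoq and Cfd in the analysis reported held 0.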
